A study of Mus musculus with 10 samples.

Results

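Prostaglandin E2 is made and read by a small set of genes, and 10 of them were followed here in resected mouse fibrosarcomas: the cyclooxygenases Ptgs1 and Ptgs2, the terminal synthases Ptges, Ptges2 and Ptges3, the receptors Ptger1 to Ptger4, and Hpgd, the enzyme that inactivates the product. They were picked by symbol from the 26378 named features of the count table, with earlier results of these tumors known, so their differences between the groups are given as a description, with no p for any of them. RNA was sequenced from WEHI 164 tumors, a fibrosarcoma cell line grown under the skin of wild-type female BALB/c mice, with 1 piece per mouse. Each piece was cut out at surgery, before any treatment. A hydrogel releasing poly(I:C), a double-stranded RNA that activates Toll-like receptor 3, was then laid on the residual tumor. The 5 responders (tumors 5, 9, 10, 11 and 12) later regressed completely, and the growth of the 5 non-responders (tumors 1, 2, 3, 6 and 7) was not delayed. The model is 1 transplanted cell line, the labels give no age, and each piece also holds the host cells that the tumor contained. Each tumor gave 16002949 to 31160790 estimated counts, with a median of 25627675 in responders and 22757833 in non-responders.

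Arachidonic acid, freed from membranes by phospholipases, is turned by the cyclooxygenases into the unstable prostaglandin H2, which the terminal synthases convert to prostaglandin E2. The product leaves the cell and acts on 4 G protein-coupled receptors: EP2 and EP4 raise cyclic AMP, EP3 mostly lowers it, and EP1 is linked to calcium. In tumors prostaglandin E2 is known for dampening T cells, NK cells and dendritic cells and for its part in inflammation and pain.

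Values are CPM after TMM normalization, counts scaled by the total of each tumor and by a factor that evens out the bulk of the genes. On a scale of CPM per kilobase of the longest transcript, the level of the synthesis genes stood far above that of the receptors. Ptges3 was at 110 ± 10 (SD, n = 10 tumors), Ptgs1 at 44.6 ± 4.9, Ptges at 43.9 ± 4.5 and Ptgs2 at 29.8 ± 9.1. Ptgs1 and Ptges, neighbors in this order, did not differ beyond their spread, and the highest single tumor of Ptgs2, at 44.7, reached their means. Ptges2 followed at 6.33 ± 0.49. The receptors came next, with Ptger4 at 2.03 ± 0.28, Ptger1 at 1.43 ± 0.20 and Ptger2 at 0.547 ± 0.160. Hpgd at 0.214 ± 0.143 and Ptger3 at 0.170 ± 0.043 were the lowest and overlapped. The order depends on the length used: with coding length Ptges came second, at 349 ± 36, above Ptgs2 at 73.3 ± 22.3 and Ptgs1 at 70.8 ± 7.8, and Ptger1 at 5.51 ± 0.79 lay above Ptger4 at 4.97 ± 0.69. Ptges3 stayed first, and Ptger3 and Hpgd stayed in the last places, under all 3 lengths tried.

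**Figure D1:**
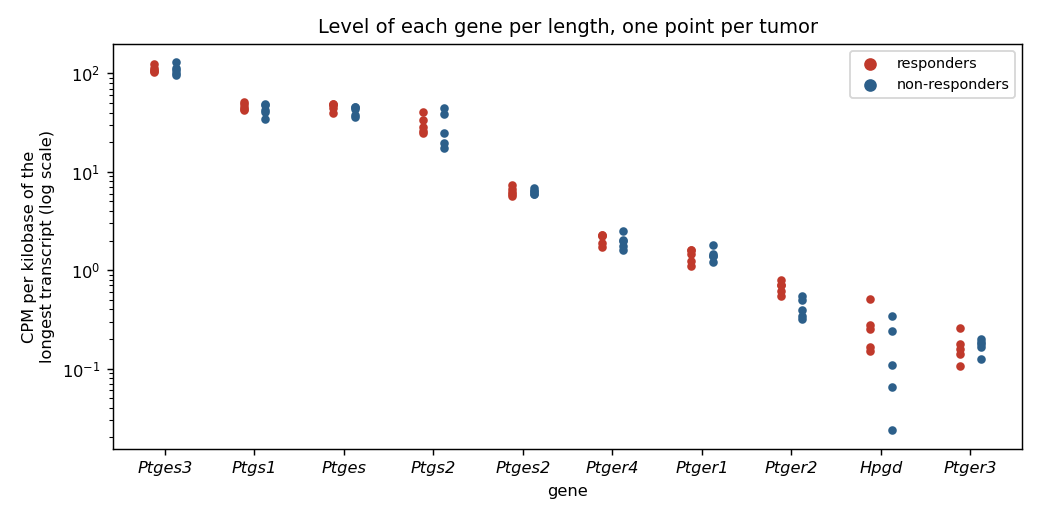
Level of each gene as CPM per kilobase of the longest transcript (log axis), with 1 point per tumor and the groups side by side in color. Synthesis genes lie above the receptors, from 110 for Ptges3 down to 0.170 for Ptger3 as means over the 10 tumors.

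The share of a gene's sequence that also occurs in other transcripts bears on how firmly counts can be assigned to it. Ptgs2, Ptger3 and Hpgd share 0% of their 31-base words with other annotated genes, and Ptges, Ptges2, Ptgs1 and Ptger2 share 0.357%, 1.83%, 3.26% and 4.24%. Ptger1 shares the most, 66.4% of its words, so its counts are uncertain. Ptges3 shares 20.9%, mostly with the pseudogene Ptges3-ps, and Ptger4 15.2%, mostly with the pseudogene Gm15937 on the other strand. Such reads were divided by kallisto, which assigns them to transcripts by likelihood, and the error of that division was not measured here.

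All 10 genes passed the filter on low counts, Hpgd with 3 responders and 2 non-responders over its CPM minimum. The log2 fold change, responders over non-responders, was above 0 for 9 of the 10 and below 0 for 1, against 50.3% above 0 among all 14944 features tested. The median was 0.07 over the 10 genes and 0.00 over all features, and 8 of the 10 lay within 0.2 of 0. By the quasi-likelihood test of edgeR with Benjamini-Hochberg adjusted p, 0 of the 10 passed 0.05, as did 0% of all features, and DESeq2 and limma-voom also called 0 of the 10. At an unadjusted p under 0.05, 1 of the 10 was higher and 0 were lower, where 4.75% and 3.61% of all features were (8.36% in either direction). The groups did not overlap for 1 of the 10, which was higher in responders, and for 0 lower ones, where 0.408% and 0.475% of all features had such a pattern. Nothing is read from these counts, since the genes were chosen with this contrast known.

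**Figure D2:**
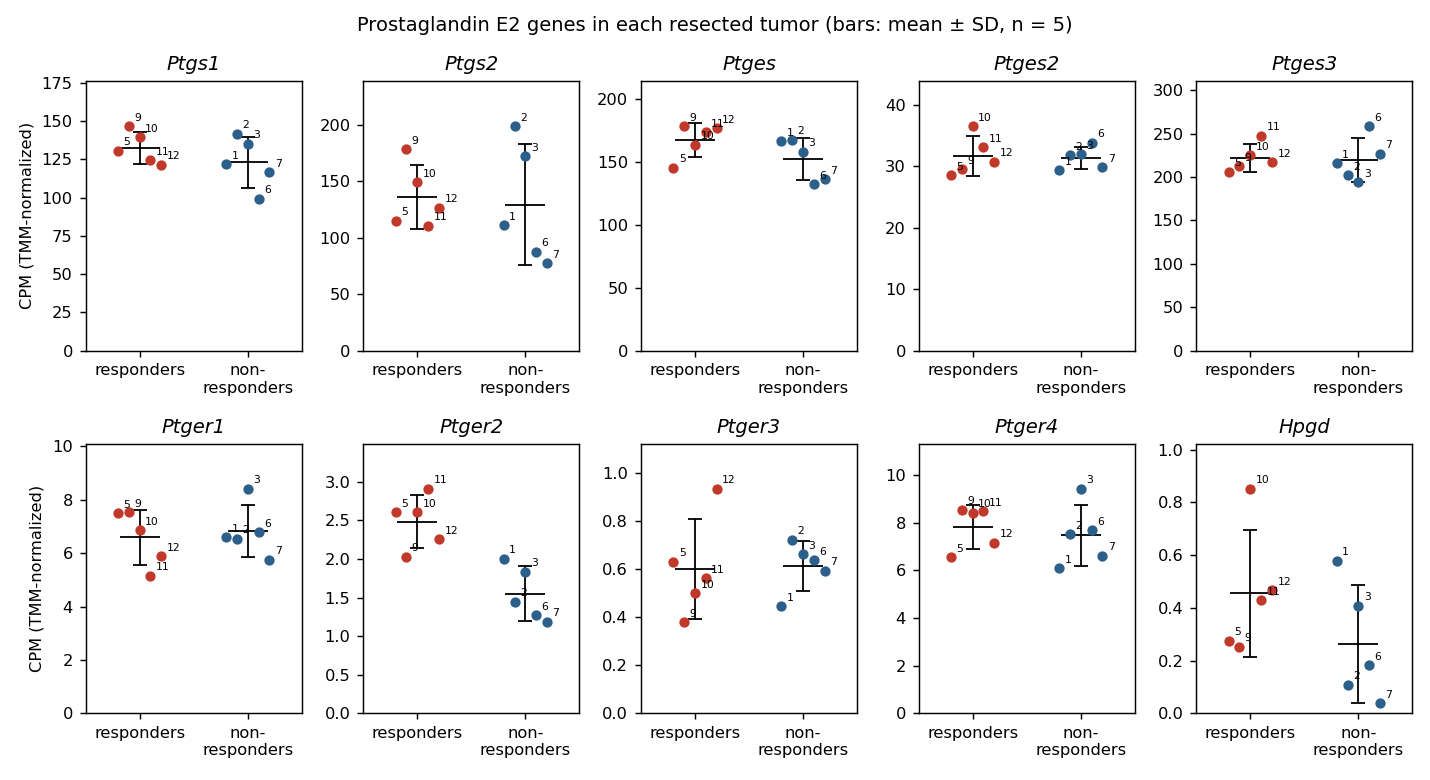
CPM of each of the 10 genes in every tumor (points, with tumor numbers), with the mean and SD of the 5 responders and of the 5 non-responders as bars. Ptger2 is the gene whose groups do not overlap, with responders from 2.03 to 2.91 and non-responders from 1.19 to 2.004. The gap between the groups is smaller than the counting error of these values.

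The cyclooxygenases catalyze the committed step. Ptgs1, the constitutive form, lies on GRCm38 chromosome 2, 36230426 to 36252272, plus strand. Ptgs2, the inducible form, lies on chromosome 1, 150100031 to 150108227, plus strand, and is an early-response gene in many cell types. The 250 bases before the annotated start of each are shown because this pair had the highest correlation of the 10 genes within groups (r = 0.860, not past the threshold after adjustment), together with a 30-base stretch past the start of Ptgs2. Sequences are from the RefSeq promoter table on GRCm38.p6, which matched 9 of the 10 genes, and capitals mark motif matches.
Ptgs1, chr2:36230176-36230425, plus strand: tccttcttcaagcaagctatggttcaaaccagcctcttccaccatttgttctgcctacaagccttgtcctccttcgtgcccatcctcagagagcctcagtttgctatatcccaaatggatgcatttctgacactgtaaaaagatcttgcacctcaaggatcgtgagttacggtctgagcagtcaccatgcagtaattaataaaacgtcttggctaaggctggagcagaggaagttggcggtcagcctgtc
Ptgs2, chr1:150099781-150100030, plus strand: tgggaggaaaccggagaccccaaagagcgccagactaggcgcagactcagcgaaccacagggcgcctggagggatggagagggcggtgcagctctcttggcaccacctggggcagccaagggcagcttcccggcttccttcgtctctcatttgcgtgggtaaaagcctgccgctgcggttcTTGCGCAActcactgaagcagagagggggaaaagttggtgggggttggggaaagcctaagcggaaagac
Ptgs2, chr1:150100033-150100062, plus strand: agtcaccactaCGTCAcgtggagtccgctt

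The motifs were searched on both strands in windows of 300 bases, 250 before and 50 after the annotated start. Ptgs2 holds 1 match to the C/EBP-type letters TTNNGCAA, starting 69 bases before the start, a match that 10.8% of all 32851 promoters have. It also holds 1 short CRE, TGACG, found here as its reverse complement 14 bases past the start and held by 20.8% of all promoters. The Ptgs1 window holds no match to either, nor to the full CRE (TGACGTCA, 1.79% of promoters, which also contains the short CRE), the NF-kB-type motif (20.7%), the ISRE-type motif (3.44%) or TATAAA (13.6%). A match is a description of the sequence and not a binding site.

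Ptgs1 varied little. It stood at 131, 147, 139, 124 and 122 CPM in responders 5, 9, 10, 11 and 12, and at 122, 142, 135, 99.4 and 116 in non-responders 1, 2, 3, 6 and 7. The groups overlapped through most of their range, with non-responder 6 the lowest tumor. The means were 133 ± 10 in responders and 123 ± 17 in non-responders (SD, n = 5 each), a difference smaller than either SD, and the log2 fold change was 0.11 (SE 0.09), from 0.04 without non-responder 6 to 0.16 without non-responder 2.

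Ptgs2 varied most among the synthesis genes. Responders 5, 9, 10, 11 and 12 had 115, 179, 149, 111 and 127 CPM, and non-responders 1, 2, 3, 6 and 7 had 111, 199, 172, 87.8 and 77.5. The highest value and the 2 lowest belonged to non-responders, so the non-responders spanned the whole range and the responders lay inside it. The means, 136 ± 28 and 130 ± 54 (SD, n = 5 each), differed by far less than the spread, with a log2 fold change of 0.07 (SE 0.24). Its sign turned with single tumors: the value was 0.28 without non-responder 2 and -0.07 without non-responder 7. Per tumor the ratio of Ptgs2 to Ptgs1 counts was 1.02 ± 0.14 in responders and 1.03 ± 0.30 in non-responders.

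The synthases come next in the pathway. Ptges, the inducible microsomal synthase that works with Ptgs2 (GRCm38 chromosome 2, 30889471 to 30929863, minus strand), stood at 146, 179, 164, 174 and 177 CPM in responders 5, 9, 10, 11 and 12. It stood at 167, 168, 158, 132 and 137 in non-responders 1, 2, 3, 6 and 7. Responders 9, 11 and 12 lay above every non-responder, while responder 5 lay among the lower non-responders. The means were 168 ± 14 and 152 ± 17 (SD, n = 5 each), about 1 SD apart, with a log2 fold change of 0.14 (SE 0.08), between 0.09 and 0.19 when single tumors were left out.

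Ptges2 and Ptges3 were even across the tumors. Ptges2, a second membrane-associated synthase, ranged from 28.5 to 36.5 CPM among responders and between 29.3 and 33.8 among non-responders (log2 fold change 0.02, SE 0.07). Ptges3, better known as p23, a cochaperone of HSP90, ranged from 206 to 248 among responders and between 194 and 259 among non-responders (log2 fold change 0.01, SE 0.08). Both sets of groups overlapped almost fully, and the sign of both values changed when single tumors were left out.

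The spread within groups was compared between the genes. Deviations of log2(CPM + 1) from the group means were compared for all 45 pairs of the 10 genes, a comparison added after the values had been seen. Ptgs1 and Ptgs2 had Pearson's r = 0.860 over the 10 tumors (permutation test within groups, p = 0.00679, adjusted over the pairs p = 0.306) and Spearman's rho = 0.818 (permutation p = 0.0117, adjusted 0.458). Without responder 9 and non-responder 6, the tumors farthest from the median of Ptgs1, r was 0.896. Ptgs1 and Ptges3 ran in opposite directions, with r = -0.804 (permutation p = 0.0175, adjusted 0.393) and rho = -0.721 (permutation p = 0.0407, adjusted 0.458), and r = -0.568 without those tumors. Ptgs2 and Ptges had r = 0.681 (permutation p = 0.0742, adjusted 0.544) and rho = 0.685 (permutation p = 0.0698, adjusted 0.628), and r = 0.520 without non-responders 2 and 7. None of the 45 pairs passed the threshold after adjustment, 3 had an unadjusted p under 0.05 for r, and all values share the same libraries and scaling factors.

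**Figure D3:**
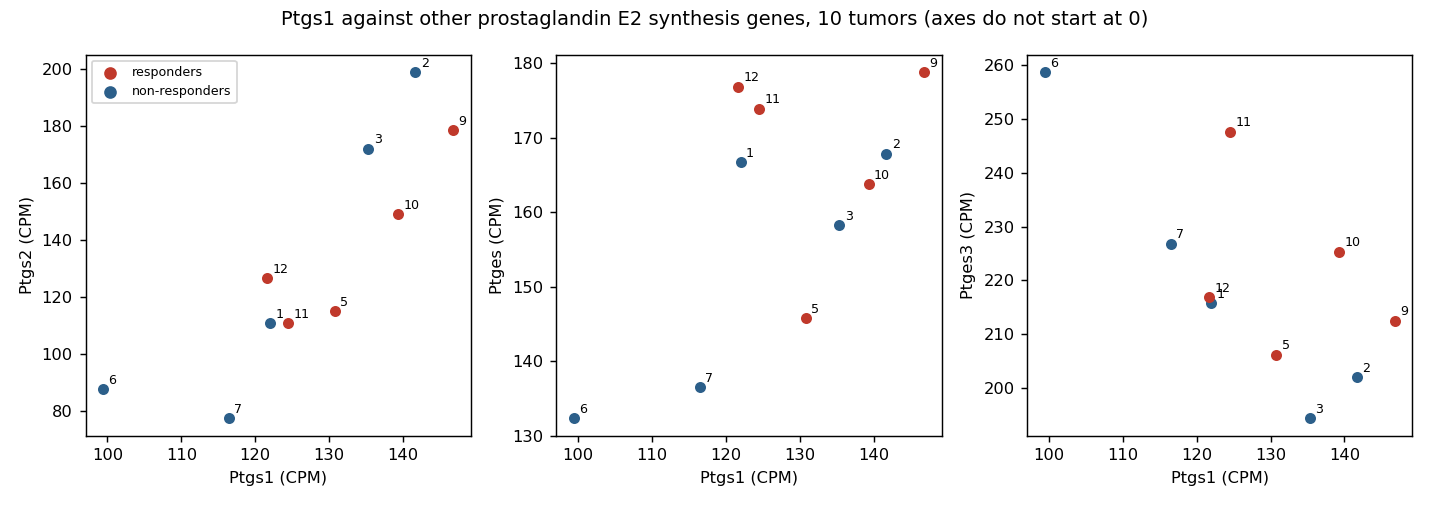
CPM of Ptgs1 (x axis) against Ptgs2, Ptges and Ptges3 (y axes) in the 10 tumors, numbered and colored by group, with axes that do not start at 0. Within groups r is 0.860 for Ptgs2 and -0.804 for Ptges3, neither past the threshold after adjustment, and responder 10 has the second highest Ptgs1 and the second highest Ptges3 of its group.

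The genes most like each synthesis gene over the 10 tumors were ranked by Pearson's r of log2(CPM + 1) among 13083 genes with a mean CPM of at least 1. For Ptgs1 they were Kif13b, a kinesin (r = 0.971), Dusp6, a phosphatase of the kinase ERK (0.938), and Fan1, a DNA repair nuclease (0.925). For Ptgs2 they were the predicted gene Gm6377 (0.946), Unk (0.941) and Egr2, an early-response transcription factor (0.935). For Ptges they were Slc27a1, a fatty acid transporter (0.952), Rps27rt, a ribosomal protein retrogene whose counts may be shared with its parent (0.943), and Clip4 (0.935). For Ptges3 they were Ppp5c, a phosphatase that also binds HSP90 (0.978), Anp32b (0.975) and Aimp2 (0.971), and for Ptges2 they were Nnmt (0.922), Agpat1 (0.888) and Tle5 (0.879). Each list is the top of a ranking over many genes and is given as a description.

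Of the receptors, Ptger2, which encodes EP2, had the largest log2 fold change. It lies on GRCm38 chromosome 14, 44988195 to 45003820, plus strand. The upstream sequence and the stretch with the motif match are shown because Ptger2 was the gene of the 10 whose groups did not overlap; the RefSeq start used for the window lies upstream of the GENCODE gene start given here.
Ptger2, chr14:44987861-44988110, plus strand: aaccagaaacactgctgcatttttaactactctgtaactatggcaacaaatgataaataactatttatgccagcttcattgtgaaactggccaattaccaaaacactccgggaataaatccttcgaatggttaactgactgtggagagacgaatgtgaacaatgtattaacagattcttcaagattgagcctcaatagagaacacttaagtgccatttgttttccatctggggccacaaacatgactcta
Ptger2, chr14:44988131-44988160, plus strand: ctgttttgttttgttaggaTTGCTTAAgca
The capitals mark the C/EBP-type letters on the minus strand, 40 bases past the RefSeq start, and the window holds no full or short CRE, NF-kB-type, ISRE-type or TATA match.

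Ptger2 was at 2.60, 2.03, 2.61, 2.91 and 2.26 CPM in responders 5, 9, 10, 11 and 12. It was at 2.004, 1.44, 1.84, 1.27 and 1.19 in non-responders 1, 2, 3, 6 and 7. Every responder lay above every non-responder, but responder 9 (2.027) and non-responder 1 were almost level. These tumors had 32 and 45 estimated counts of Ptger2. Counting alone gives a coefficient of variation of 14.5% at its mean count. The gap between them lies within that error, so the absence of overlap is not firm. The means were 2.48 ± 0.34 and 1.55 ± 0.36 (SD, n = 5 each). That is 1.62-fold, or 0.69 on the log2 scale (SE 0.18), and 0.61 to 0.80 when each tumor was left out in turn. These levels rest on 28 to 88 estimated counts per tumor. In bulk RNA, fewer cells of a type and less RNA per cell cannot be told apart.

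Ptger4, which encodes EP4, the other receptor that raises cyclic AMP (GRCm38 chromosome 15, 5206661 to 5244187, minus strand), had no such pattern. Responders 5, 9, 10, 11 and 12 had 6.54, 8.55, 8.42, 8.50 and 7.17 CPM, and non-responders 1, 2, 3, 6 and 7 had 6.10, 7.51, 9.43, 7.70 and 6.62. The highest and the lowest tumor were both non-responders, and the log2 fold change was 0.07 (SE 0.13), from 0.00 without non-responder 1 to 0.16 without non-responder 3. The ratio of Ptger2 to Ptger4 counts was 0.320 ± 0.058 in responders and 0.212 ± 0.066 in non-responders (SD, n = 5 each). The groups overlapped in this ratio: non-responder 1, at 0.328, lay above responders 9 (0.237), 10 (0.310) and 12 (0.315). The other non-responders, at 0.166 to 0.195, lay below every responder.

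For Ptger1 and Ptger3 the groups overlapped. Ptger1, which encodes EP1, ranged from 5.16 to 7.54 CPM among responders and between 5.75 and 8.41 among non-responders. Its log2 fold change was -0.05 (SE 0.13), from -0.11 without non-responder 7 to 0.03 without non-responder 3. The uncertainty of its counts is given above. Ptger3, which encodes EP3, had 6 to 24 estimated counts per tumor, and its log2 fold change of 0.00 (SE 0.25) changed sign under 9 of 17 alternative fits, from -0.22 without responder 12 to 0.10 without responder 9. A difference of that size could not be resolved at this depth.

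Hpgd, 15-hydroxyprostaglandin dehydrogenase, starts the breakdown of prostaglandin E2 (GRCm38 chromosome 8, 56294585 to 56321043, plus strand). Responders 5, 9, 10, 11 and 12 had 0.276, 0.253, 0.852, 0.4298 and 0.467 CPM, and non-responders 1, 2, 3, 6 and 7 had 0.579, 0.108, 0.408, 0.182 and 0.0396. The groups overlapped: responder 10 was the highest tumor, non-responder 1 the next, and non-responder 7, with 1 estimated count, the lowest. The log2 fold change of 0.84 had an SE of 0.54 and rested on 1 to 17 counts per tumor; it was 0.53 without responder 10 and 1.37 without non-responder 1. Within groups Hpgd and Ptger2 had r = 0.709 (permutation p = 0.0458, adjusted over the 45 pairs 0.544) and rho = 0.745 (permutation p = 0.0270, adjusted 0.458), with r = 0.600 without non-responders 6 and 7.

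The genes most like Ptger2 over the 10 tumors were Cass4, an adaptor of focal adhesions (r = 0.941), Gab1, a docking protein of growth factor receptors (0.916), and the predicted gene Gm42517 (0.908). With the group means removed, r was 0.938 for Cass4, 0.739 for Gab1 and 0.731 for Gm42517. For the last 2, only part of the likeness remained within groups. Each list here is the top of a ranking over 13083 genes in the same tumors, so values within groups are no separate check. For Hpgd the nearest were Entpd4 (0.918), Ptpro (0.909) and P2rx7, an ATP-gated channel (0.904), and for Ptger4 they were Zfp219 (0.976), Msrb1 (0.940) and Mrpl53 (0.937). For Ptger1 they were Wdr90 (0.913), Aqp5 (0.878) and Npr3 (0.859), and for Ptger3 they included Timm8b (0.902) and Tceanc (0.879). Hpgd and Ptger3 rest on 1 to 17 and 6 to 24 counts per tumor, so their lists are the least firm.

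Markers of several host cell types had higher means in responders, none past the adjusted threshold and with overlapping sums, and they are given here beside Ptger2. All marker lists were chosen with earlier results of these tumors known. Nothing is therefore read from how many markers had an unadjusted p under 0.05. For mast cells, which carry EP receptors, all 8 markers were higher in responders and 5 had an unadjusted p under 0.05 (edgeR), as had 4.75% of all features in that direction, with 0 at an adjusted p under 0.05. Their summed level was 413, 374, 455, 654 and 535 CPM in responders 5, 9, 10, 11 and 12 and 527, 310, 394, 295 and 297 in non-responders 1, 2, 3, 6 and 7. The groups overlapped: non-responder 1 lay above responders 5, 9 and 10 in mast cell markers and below each of them in Ptger2, and non-responders 2, 6 and 7 were the lowest tumors in both. The most abundant marker was Tpsab1, a tryptase, at 194 ± 47 and 150 ± 43 CPM. For NK cells, all 6 markers were higher and 5 had an unadjusted p under 0.05. Their sum was 16.1, 64.2, 77.8, 135 and 70.6 CPM in responders 5, 9, 10, 11 and 12 and 35.8, 11.3, 17.6, 43.2 and 18.6 in non-responders 1, 2, 3, 6 and 7, led by Gzma, and the groups overlapped, with responder 5 among the non-responders. T cell markers were higher for 8 of 8 (sum 40.7 ± 13.6 and 28.6 ± 8.1 CPM, led by Lck), neutrophil markers for all 7 tested of 9 (38.8 ± 13.2 and 26.1 ± 6.5, led by Csf3r) and macrophage markers for 9 of 10 (1679 ± 207 and 1504 ± 182, led by C1qa). Of these lists 1, 2 and 0 markers were higher at an unadjusted p under 0.05. No marker of these 5 lists was at 0 in every tumor. Their part in the Ptger2 difference was not tested.

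**Figure D4:**
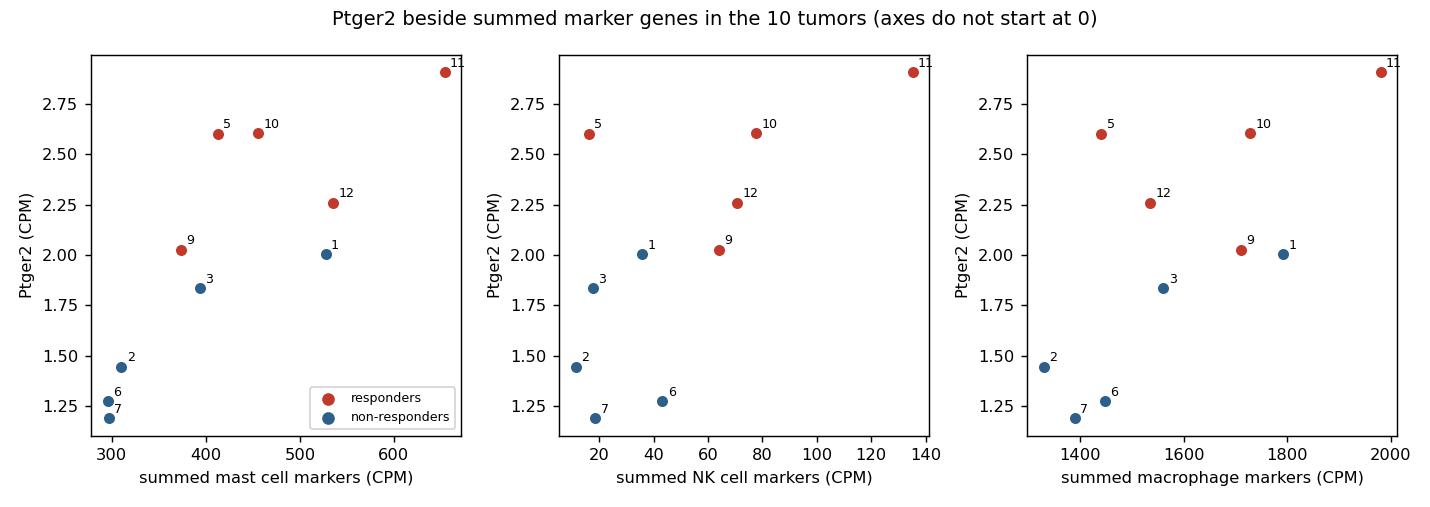
CPM of Ptger2 (y axis) against the summed CPM of mast cell, NK cell and macrophage markers (x axes) in the 10 tumors, numbered and colored by group, with axes that do not start at 0. The groups overlap in all 3 marker sums: non-responder 1 has more mast cell marker CPM (527) than responders 5, 9 and 10 and less Ptger2 than each, and non-responders 2, 6 and 7 are lowest in Ptger2 and in mast cell markers.

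Other lists described what else the pieces held. The 9 fibroblast and fibrosarcoma markers all passed the filter, summing to 10847 ± 435 CPM in responders and 11416 ± 730 in non-responders and led by Vim, and 3 of them were higher and 6 lower in responders. Monocyte markers (5, led by Vcan) and dendritic cell markers (7, led by Fscn1) were split in direction, with 3 and 4 higher. Skeletal muscle markers (led by Acta1) had lower values in responders for 7 of 8 and adipocyte markers (led by Fabp4) for 7 of 7. Endothelial markers did for 7 of 8, all but the most abundant, Pecam1, which was at 73.8 ± 6.6 and 68.9 ± 5.4 CPM. At an unadjusted p under 0.05 (edgeR), 3 endothelial, 2 fibroblast and 1 each of the muscle, adipocyte, dendritic cell and platelet markers were lower, beside 3.61% of all features, and 1 each of the monocyte and platelet markers was higher. Platelet markers (led by Pf4) were higher for 3 of 5 tested. B cell markers summed to only 1.86 ± 0.29 and 1.91 ± 0.43 CPM, led by Cd79b, and of the 8 keratinocyte markers 1 passed the filter, with Krt10 the most abundant and Krt1 at 0 in every tumor. Of all these lists, 0 markers had an adjusted p under 0.05.

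Spread within groups was not used to choose the genes, and it was set against scores of immune markers, each the mean log2(CPM + 1) of a list. Over 30 pairs of the 10 genes with the T and NK cell, macrophage and neutrophil scores, 0 had an adjusted p under 0.05 in a permutation test within groups with 100000 resamples, for r or for rho, and 1 had an unadjusted p under 0.05 for r. That pair was Hpgd with the neutrophil score, with r = 0.669 (permutation p = 0.0443, adjusted 0.653) and rho = 0.564 (permutation p = 0.119, adjusted 0.511), and r = 0.646 without responders 10 and 11. By chance alone, the cutoff lets through about as many of 30 pairs, and Hpgd rests on 1 to 17 counts per tumor. Ptger2 with the macrophage score had r = 0.670 (permutation p = 0.0571, adjusted 0.653) and rho = 0.612 (permutation p = 0.0984, adjusted 0.511), and r = 0.658 without responder 11 and non-responder 2. Ptger2 with the T and NK cell score had r = 0.189 within groups (permutation p = 0.593, adjusted 0.712) and rho = 0.406 (permutation p = 0.267, adjusted 0.536), and r = -0.05 without responder 11 and non-responder 2.

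Around these 10 genes, 95 genes of the surrounding pathway were listed by role and 84 were tested. By edgeR, 0 had an adjusted p under 0.05, and DESeq2 and limma-voom also called 0. At an unadjusted p under 0.05, 11 (13.1%) were higher and 2 (2.38%) lower in responders, beside 4.75% and 3.61% of all features. The lists were chosen with earlier results of these tumors known. Nothing is therefore read from such counts, here or for the single lists below. The count of higher genes fell to 5 without non-responder 7 and to 7 without responder 11. The median log2 fold change was 0.02, with 47 of 84 above 0, and every value below failed the adjusted threshold.

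Upstream of the cyclooxygenases, arachidonate release showed 1 of 13 tested genes higher at an unadjusted p under 0.05, with a list median of -0.03. It was Pla2g4a, the cytosolic phospholipase that supplies arachidonic acid, at 64.9 ± 7.1 CPM in responders and 56.8 ± 3.4 in non-responders (log2 fold change 0.19, SE 0.07; edgeR adjusted p = 0.567). Pla2g2d, a secreted phospholipase, had 0.68 (SE 0.42), Pla2g4e -0.38 (SE 0.24) and Mgll, the lipase of monoacylglycerols, -0.17 (SE 0.11). Among synthases of other prostanoids, 0 of 6 reached an unadjusted p under 0.05 in edgeR (median 0.16): Tbxas1, thromboxane synthase, had 0.30 (SE 0.16), Cbr1 0.29 (SE 0.18) and Hpgds, a prostaglandin D2 synthase, -0.17 (SE 0.09).

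Among receptors of other prostanoids, Ptgfr, the receptor of prostaglandin F2 alpha, was at 3.67 ± 0.66 and 2.67 ± 0.36 CPM (log2 fold change 0.44, SE 0.15; edgeR adjusted p = 0.555), 1 of 3 tested genes at an unadjusted p under 0.05. Ptgir, the prostacyclin receptor, had 0.24 (SE 0.19) and Tbxa2r, the thromboxane receptor, -0.13 (SE 0.49). Of 5 genes for transport and breakdown, Slco3a1, an organic anion transporter that carries prostaglandins, had 5.82 ± 0.85 and 4.32 ± 0.98 CPM (0.44, SE 0.16; edgeR adjusted p = 0.567), while Abcc4 had 0.04 (SE 0.05), Slco2a1, the prostaglandin transporter, -0.15 (SE 0.16) and Ptgr2 -0.02 (SE 0.04).

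The relay downstream of EP2 and EP4, from adenylate cyclases to CREB family factors and phosphodiesterases, had 3 of 26 tested genes higher and 1 lower at an unadjusted p under 0.05, with a median of -0.03 and 17 of 26 below 0. Crem, a cyclic AMP-responsive transcription factor, stood at 10.5 ± 0.6 CPM in responders and 8.39 ± 1.34 in non-responders (log2 fold change 0.33, SE 0.11; edgeR adjusted p = 0.555). Its groups did not overlap, a pattern of 1 of the 84 pathway genes (1.19%) and 0.408% of all features. Pde4b, a cyclic AMP phosphodiesterase, had 0.35 (SE 0.13; edgeR adjusted p = 0.568) and Crtc1, a coactivator of CREB, -0.19 (SE 0.08; edgeR adjusted p = 0.573). Prkar1a, a regulatory subunit of protein kinase A, had -0.10 (SE 0.05), and Pde3b, named after its value was seen, had 0.14 (SE 0.06). Of 7 CREB target genes 1 was lower at an unadjusted p under 0.05: Rgs2, a regulator of G protein signaling, at 8.50 ± 0.75 and 11.1 ± 2.4 CPM (-0.38, SE 0.14; edgeR adjusted p = 0.567). Per1 had 0.35 (SE 0.25), Areg 0.15 (SE 0.16) and Nr4a2 -0.15 (SE 0.12).

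The lipoxygenase and leukotriene arm, which competes for the same arachidonic acid, had 4 of 12 tested genes higher and 0 lower at an unadjusted p under 0.05, with a median of 0.19. Ltb4r1, the leukotriene B4 receptor, was at 6.79 ± 2.14 and 4.29 ± 0.74 CPM (log2 fold change 0.67, SE 0.21; edgeR adjusted p = 0.555). Cysltr2, a cysteinyl leukotriene receptor, had 0.72 (SE 0.28; edgeR adjusted p = 0.572), and the value without responder 11 was 0.44. Alox8 had -0.37 (SE 0.29) and Aloxe3 -0.15 (SE 0.20). Cysltr1 (0.28, SE 0.12) and Alox5ap (0.17, SE 0.08) made up the 4 and are named after their values were seen. All 4 are known from leukocytes. Beside them, the mast cell, NK cell, T cell, neutrophil and most macrophage markers had higher means in responders. Monocyte and dendritic cell markers were split, and endothelial markers were lower in responders for 7 of 8. The part of any of these cell types in the values was not tested.

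Among inducers and regulators of Ptgs2, 1 of 12 was higher at an unadjusted p under 0.05, with a median of 0.13. Cebpd, a C/EBP family factor, was at 19.0 ± 3.3 and 14.96 ± 2.81 CPM (log2 fold change 0.34, SE 0.14; edgeR adjusted p = 0.573), and Cebpb had 0.22 (SE 0.11). Egr1, an early-response factor, had -0.32 (SE 0.32), with 148 ± 42 and 185 ± 108 CPM, and Rela, an NF-kB subunit, had -0.06 (SE 0.05).

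**Figure D5:**
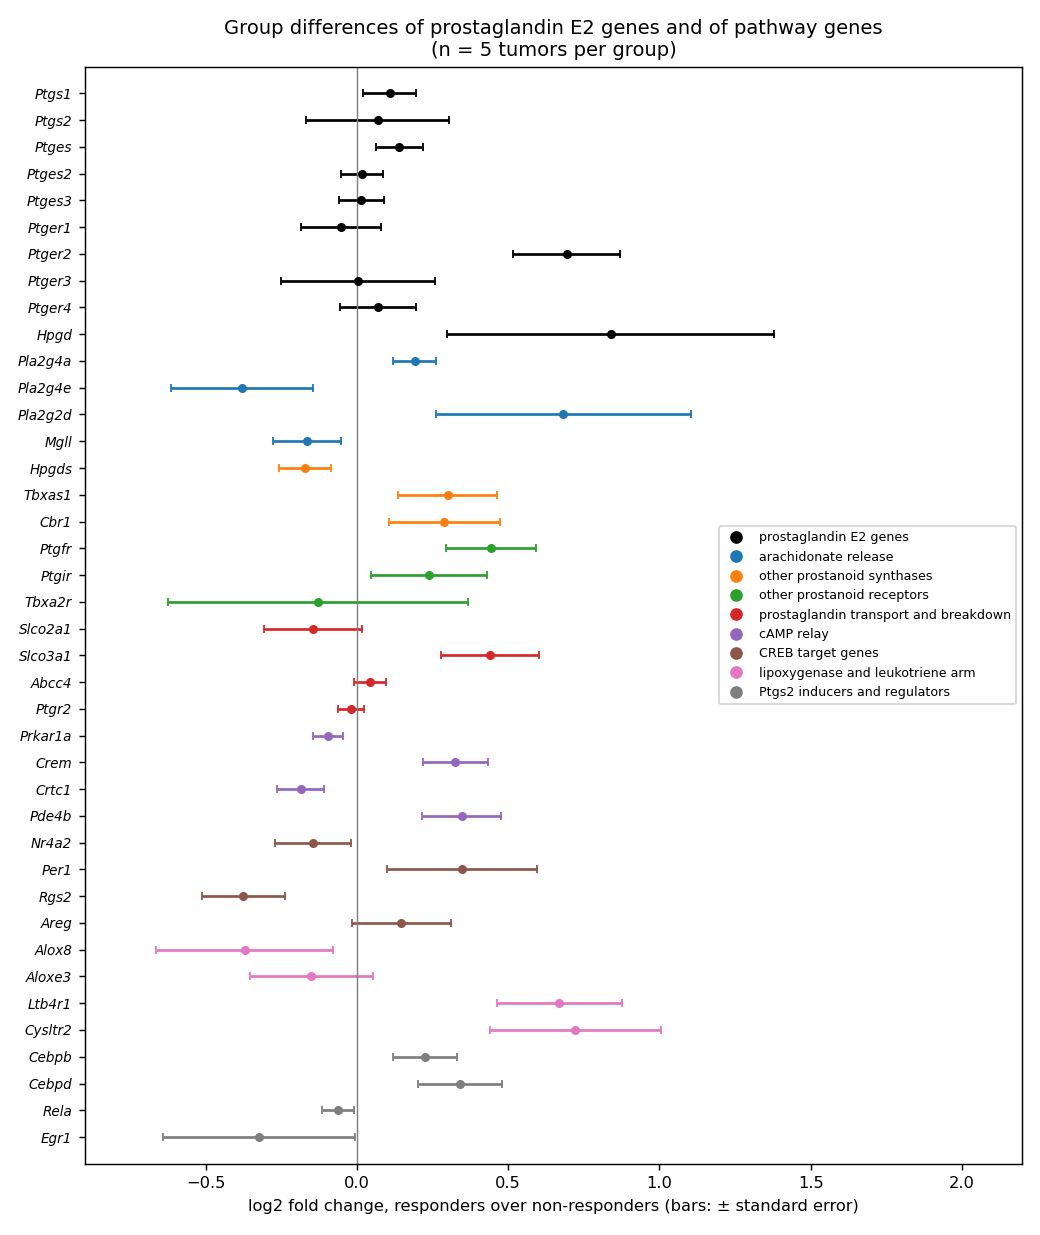
Log2 fold change, responders over non-responders, with its standard error (x axis) for the 10 prostaglandin E2 genes (black) and for the pathway genes named from each list, colored by list (n = 5 tumors per group). Among the 10 genes, Ptger2 is at 0.69, Hpgd is at 0.84 with the widest error, and the others lie within 0.2 of 0.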

How the data were processed

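The authors estimated transcript abundances with kallisto on GRCm38 (mm10) and summed them to genes with tximport. The deposited table holds estimated counts, summed by gene and not normalized; the annotation release is not given in the sources used here. The members and gene lists were chosen with earlier results of these data known. Of 36009 rows, 9580 without a gene name (1.20% to 1.49% of counts) were left out, rows sharing a name were summed, and counts were rounded. Features over the CPM minimum that the study gives for its time course (5.77 counts in the shallowest and 11.3 in the deepest tumor) in 3 or more tumors were tested, 14944 in number.

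Groups were compared with edgeR 4.0.16 (R 4.3.3; TMM, quasi-likelihood test, Benjamini-Hochberg adjustment, threshold 0.05), with DESeq2 1.42.0, limma 3.58.1, other scalings and filters and leaving out each tumor as alternatives. The common dispersion corresponds to a coefficient of variation of 10.1% between tumors. CPM are TMM-normalized. Log values used a pseudocount of 1. Permutation tests were two-sided. In simulated data 189 of 200 changed genes were called, with a recovery of 91.4% at 2-fold, and 17 others were called, among 14796 genes. The simulated counts used the fitted dispersions and no differences in cell content between tumors. The recovery pools genes of all levels and does not hold for genes of few counts. Each pair of tumors differed by at least 4.89 times sampling noise (chi-square per gene). The labels name no batch. Positions and shared words are from GENCODE vM21 (GRCm38). Named were all members, the 2 genes of smallest p per direction and list, the most abundant marker per list and markers at 0, and the 3 genes most like each member; 2 genes that these steps brought up are not reported here.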

Additional observations from a re-analysis of the deposited data

Results flagged for a closer look

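4 values lay far from the rest of their group on the log2(CPM + 1) scale, by Dixon's criterion at 5 tumors per group. Over 54 measures in 2 groups, chance alone would give about 5.4 such values. Pde4b was at 4.15 in responder 5, where the other responders were between 4.69 and 4.77. Pla2g2d was at 1.79 in non-responder 1, where the other non-responders were between 0.586 and 0.810. Pla2g4e was at 0.920 in responder 11 (others 0.633 to 0.708), and Aloxe3 was at 0.843 in responder 11 (others 0.651 to 0.706). None of the 10 prostaglandin E2 genes had such a value.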

How the results depend on the processing

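No paired analysis was possible because the tumor numbers are unique across the groups. The values were recomputed in 17 alternative fits, 16 planned and 1, which kept features without a name, chosen after seeing the data. Ptgs1, Ptges, Ptger2, Ptger4 and Hpgd kept the sign of their log2 fold change in all fits that gave a value; Hpgd did not pass filterByExpr. Ptgs2 changed sign in 3, Ptges2 in 4, Ptges3 in 3, Ptger1 in 2 and Ptger3 in 9. No member or pathway gene had an adjusted p under 0.05 in any fit. Over all features DESeq2 called 1, and leaving out single tumors gave 0 to 10, the 10 without responder 5. The counts at an unadjusted p under 0.05 ranged, leaving out single tumors, from 411 (without responder 11) to 1088 (without responder 5) higher and from 351 (without responder 9) to 1007 (without responder 5) lower. For pathway genes they ranged from 5 (without non-responder 7) to 16 (without responder 5) higher and from 1 to 3 lower, and for the 10 genes from 1 to 2, the 2 without non-responder 1 or without responder 5. The median log2 fold change of the 10 genes ran from 0.01 (without non-responder 1) to 0.15 (without non-responder 3). The causes were not tested. Depth limits Ptger3 and Hpgd, which rest on few counts.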
